A study of Meleagris gallopavo with 3 samples.

Results

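Intron reads were compared gene by gene in RNA of turkey satellite cells (Meleagris gallopavo) grown under 3 culture conditions. For each gene of the deposited table, the reads on introns were divided by all reads on the gene, and this quotient, in percent, is called the intron share here. The table lists 23976 genes, and the 8241 with 200 or more gene reads in every library were taken, of which 7793 have more than 1 annotated exon. Satellite cells are the stem cells of skeletal muscle and lie between the fibre and its basal lamina. They were isolated from breast muscle of 1-day-old turkeys and grown for 2 weeks as undifferentiated cells. One group was then carried on as adherent undifferentiated cells in medium with 15% chicken serum, one as adherent cells that fused to myotubes in medium with 4% horse serum, and one for 3 months in rotated suspension in medium with chicken serum. Each group's RNA was a pool of 3 experiments, so there is 1 library per group, no replicate error is known and no p-value was computed. Intervals of shares are exact (Clopper-Pearson) 95% intervals and cover counting error alone. Genes with 200 to 219 gene reads in their lowest library (199 genes) had median shares of 10.3%, 22.6% and 10.9% in the Suspension, Adherent and Differentiating libraries, and genes with 180 to 199 (252 genes, not taken) had 11.2%, 23.1% and 10.1%.

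A gene is first copied into a precursor RNA that still holds its introns, and the spliceosome removes them, mostly while the copy is being made. Reads on introns can come from such precursors, from introns that stay in the finished transcript, from exons or genes that the annotation lacks, or from DNA carried into the library. Genes differ widely in how much of their RNA is unspliced, and some genes of RNA processing, such as those of the SR proteins and the CLK kinases, are known in mammals for introns that are held back. The read counts carry no position within the gene and no strand, and how the libraries were prepared (by poly(A) selection or otherwise) is not stated in the sources used here, so these origins of intron reads cannot be told apart.

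The libraries are named by the headings of their counts, Suspension, Adherent and Differentiating, and sets of 3 values are always given in this order. The headings carry a doubt. Of the fold-change columns in the same table, those for a pair with Differentiating use the headings Suspension and Adherent the other way round than the count columns do, and the column for Suspension and Adherent uses them as the counts do. The values do not show which use of the headings is right, and if they were exchanged, every difference given below between Adherent and Suspension would turn round. The paper reports the muscle genes TNNT2 and CSRP3 as highest in adherent and lowest in suspension cells. Their levels here have the opposite order, which an exchange of the headings would turn into that of the paper.

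The libraries held 28123949, 23033078 and 25923180 gene reads. Of the marker genes of satellite and myogenic cells, 5 are in the table, and 5, 4 and 2 of them reached 5 CPM. Here CPM are reads scaled to 1000000 exon reads of the library. MYF5, MYOD1 and MEGF10 were highest in the library headed Adherent, at 263, 1522 and 426 CPM. PAX7 and DES were highest in that headed Suspension, at 24.2 and 2781 CPM. PAX7 was at 4.93 CPM in Adherent, just under the limit. In the library headed Differentiating PAX7 and MYF5 were at 1.10 and 1.97 CPM, and all 4 fibroblast markers in the table passed 5 CPM, against 1 and 3 in the libraries headed Suspension and Adherent. Markers of other cell types were read as well, and SOX10 and the sums of 3 marker pairs were highest in the library headed Adherent, though not every marker was. SOX10, a transcription factor found in Schwann cells, was at 0.126, 65.7 and 0.351 CPM, and the 2 endothelial markers summed to 3.61, 243 and 2.89 CPM, the 2 leukocyte markers to 4.57, 76.5 and 7.63 CPM and the 2 adipocyte markers to 8.56, 210.4 and 38.6 CPM. The adipocyte sum was mostly ADIPOQ, while PLIN1 was lowest there, at 0.461, 0.344 and 9.16 CPM. SOX10 and both markers of endothelium and of leukocytes passed 5 CPM in the library headed Adherent and did not in the others. These levels move with the high intron shares of that library, and their part in them was not tested. In pooled RNA of whole cultures, fewer cells of a type and less RNA per cell cannot be told apart.

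The table counts as intron every read that does not lie on an annotated exon of the gene, and this sets the share of some genes by construction. In all, 321 of the 8241 genes have no annotated exon, so their share was 100% in every library. They were 10 mitochondrial genes and 311 genes with a LOC number only. The mitochondrial genes have no introns, so their reads headed intron do not stand for introns. COX1, a subunit of cytochrome c oxidase, had 435197, 588567 and 296887 such reads, and CYTB, a subunit of the cytochrome bc1 complex, had 182193, 204072 and 113569. ATP6, COX2, ND1 and ND5 were also among the genes with most intron reads in every library. All mitochondrial genes of the table together made up 28.5%, 27.0% and 24.8% of the reads headed intron, and all features with no exon 43.0%, 38.5% and 40.4%. Another 127 genes have a single exon, and their median share was 0% in every library. UBB, a ubiquitin gene, was the one of highest level, with 2, 21 and 3 intron reads at 2763, 15501 and 2724 exon CPM. The results that follow are on the 7793 genes with more than 1 exon, in which intron reads can stand for introns.

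Among these 7793 genes most reads lay on exons, and the library headed Adherent had the higher shares. The median intron share was 5.41%, 12.2% and 5.68%, with quartiles of 2.29 and 12.4%, 5.52 and 25.2%, and 2.35 and 12.6%. The share was under 1% in 808, 263 and 835 genes and over 50% in 311, 628 and 305. The library headed Adherent had the highest of the 3 shares in 6452 genes (82.8%), and in 4708 genes (60.4%) its interval lay above both others. The libraries headed Suspension and Differentiating stood highest in the same way in 101 and 109 genes. Summed over these genes, 9.12%, 16.2% and 7.31% of gene reads were intron reads. The share of exon reads that cross a junction of exons, counted separately in the table, differed less, with medians of 31.5%, 28.5% and 32.3% of the gene's exon reads.

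**Figure D1:**
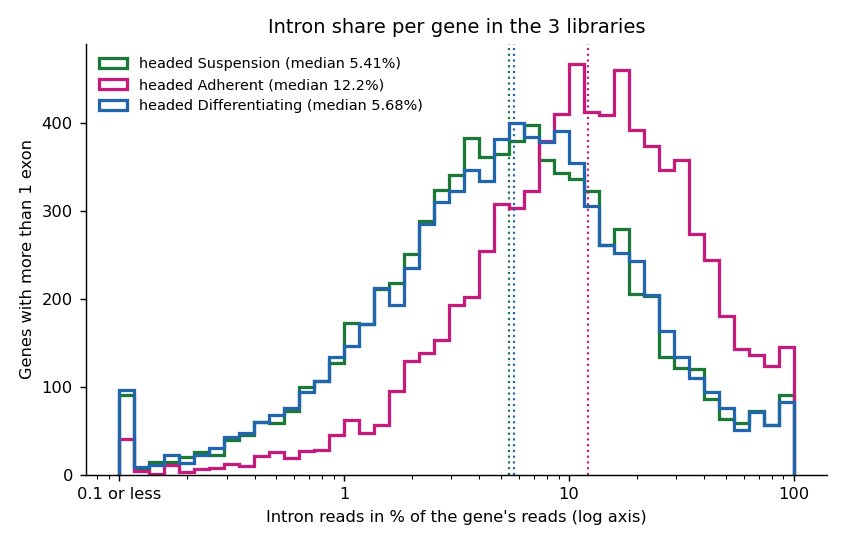
Number of genes with more than 1 exon (vertical axis, n = 7793) by intron share in percent (horizontal log axis, shares of 0.1% or less in the first bin) in each library, with the median as a dotted line. The curves of the libraries headed Suspension and Differentiating lie on each other, with medians of 5.41% and 5.68%, and that of the library headed Adherent lies to the right, with a median of 12.2%.

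A small number of genes held much of the intron reads. UFL1, the ligase that attaches the ubiquitin-like protein UFM1 to its targets, led in every library with 407531, 525818 and 252012 intron reads, a share of 99.7%, 99.9% and 99.6%, and it alone held 18.1%, 18.0% and 14.8% of the intron reads of all 7793 genes. Only 2.0%, 1.12% and 1.81% of these reads were counted as unique to the gene, so nearly all of them also match other places, and they cannot be assigned to UFL1 with confidence. Without UFL1 the summed share was 7.59%, 13.7% and 6.3%. FRMPD4, a scaffold protein of synapses, was also among the genes with most intron reads in every library and had 26725, 47375 and 29636 intron reads. Its share was 99.9%, 94.4% and 99.9%, and its exon level was 1.59, 162 and 0.964 CPM. MXRA7, a gene named for matrix remodelling, had a share of 83.3%, 82.5% and 82.2%, while its exon level was 322, 23.5 and 185 CPM. Its share thus differed by under 2 percentage points between libraries whose exon levels differed by over 10-fold.

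Further genes with most intron reads were each prominent in part of the libraries. TNNT2, the cardiac troponin T that embryonic skeletal muscle also makes, had 25329, 496 and 4352 intron reads, a share of 20.1%, 22.6% and 16.8%. ADAMTSL2, a secreted glycoprotein of microfibrils, had 5702, 214 and 9923 and a share of 18.2%, 10.2% and 17.8%. COL12A1, a collagen that sits on the surface of fibrils, had 5965, 645 and 12298 and a share of 20.4%, 51.8% and 18.8%. These 3 genes had fewest intron reads and the lowest exon level in the library headed Adherent, but the share there was the highest of the 3 for TNNT2 and COL12A1 and the lowest for ADAMTSL2. TMEM201, a protein of the inner nuclear membrane, had a share of 77.1%, 72.6% and 65.4%, lowest in the library headed Differentiating. SAT1, the enzyme that acetylates spermidine and spermine for their breakdown, had 2157, 31148 and 2547 intron reads and a share of 22.6%, 45.7% and 20.3%. Its exon level was 310.5, 2124 and 437 CPM, so both its exons and its share were highest in the library headed Adherent.

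In 259 of the 7793 genes (3.32%) introns held over 50% of the reads in all 3 libraries. These genes had long introns, a median of 58569 bases in all against 10837 bases over the 7793 genes, and 54.8% of them share their span with another annotated feature, against 23.7% of all. CPLX1, a regulator of synaptic vesicle release, was with UFL1 the gene with a symbol whose lowest share was highest, 99.9%, 98.5% and 99.4%. Its annotated span, with 535850 bases of intron, holds 11 other features, among them CLTA, GNE and NANS, with 708 to 1733 reads of their own in the library headed Suspension. Its exon level was 0.0419, 0.803 and 0.657 CPM, and how many of its intron reads belong to those genes is not given by the counts. Genes with no overlapping feature (5949) had median shares of 5.05%, 11.5% and 5.31%, so the order of the libraries was the same among them.

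At the other end stood the most abundant messages. COL1A2, which encodes a chain of type I collagen, had 10967, 3977 and 32780.2 exon CPM and a share of 0.127%, 0.233% and 0.159%. COL3A1, type III collagen, had 5696, 3475 and 21111 CPM and 0.655%, 2.52% and 0.573%, and COL6A1, a chain of type VI collagen, had 4926, 1038 and 16718 CPM and 0.234%, 0.27% and 0.33%. EEF1A1, the elongation factor that brings aminoacyl-tRNA to the ribosome, had 5462, 11424 and 9194 CPM and 0.173%, 0.371% and 0.0914%. Under 1% of the reads of these genes lay on introns, apart from COL3A1 in the library headed Adherent. ACTA1, skeletal muscle actin, had 0.139%, 0.167% and 0.0524%, but all of its few intron reads also matched elsewhere in the genome.

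The share varied with the build of the gene and with its level in each library. Among 7432 genes with at least 1000 bases of intron, the median share was 3.71%, 7.0% and 3.85% in the quintile of genes with the shortest introns and 13.1%, 33.1% and 12.7% in that with the longest. The median intron level per kb of intron fell between the same quintiles, from 1.02, 1.71 and 1.02 CPM to 0.102, 0.282 and 0.0811 CPM. The higher share of genes with long introns thus went with more intron bases, not with more reads per base. From the fewest to the most exons the median share went from 3.52%, 8.11% and 3.52% to 8.0%, 19.4% and 8.19%. The level per kb again fell, from 0.466, 0.864 and 0.426 CPM to 0.155, 0.378 and 0.13 CPM. From lowest to highest exon level per kb of exon the median share went from 13.0%, 28.4% and 12.5% to 2.86%, 7.1% and 2.77%. This fall in share is in part arithmetic, since exon reads are in the denominator of the share. The library headed Adherent had the highest median share in each of the quintiles of all 3 orderings. The ratio of its share to that in the library headed Suspension was smaller for short introns than for long ones. The medians of this ratio were 0.85 and 1.21 on the log2 scale in the first and the last quintile.

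The chromosomes of a bird differ in intron length, and the median share differed with them. Of 30 chromosomes with at least 50 of these genes, the library headed Adherent had the highest median in all. Chromosome 3, with a median intron length of 17316 bases per gene, had median shares of 6.88%, 18.0% and 7.34%. Chromosome 27, with 3772 bases, had 3.63%, 5.73% and 3.75%. The 286 genes on the chromosome headed W had the highest median of all chromosomes in the library headed Suspension, and the only one with a log2 ratio of Differentiating over Suspension below -0.10, with shares of 8.34%, 16.5% and 6.96%. A chromosome headed Z is not among the 30, and whether the heading W names the right sex chromosome was not checked.

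Introns of genes that were hardly expressed had intron reads too. In 1755 genes with under 10 exon reads in every library and at least 1000 bases of intron, the pooled level was 0.0586, 0.226 and 0.0672 intron CPM per kb of intron, that is intron reads scaled to 1000000 exon reads of the library and divided by the intron length. In the 7432 genes above it was 0.452, 0.80 and 0.356. The ratio of Adherent over Suspension was thus 3.86 in the hardly expressed genes and 1.77 in the others. The higher level of intron reads in the library headed Adherent was therefore not limited to expressed genes, and its source was not tested.

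**Figure D2:**
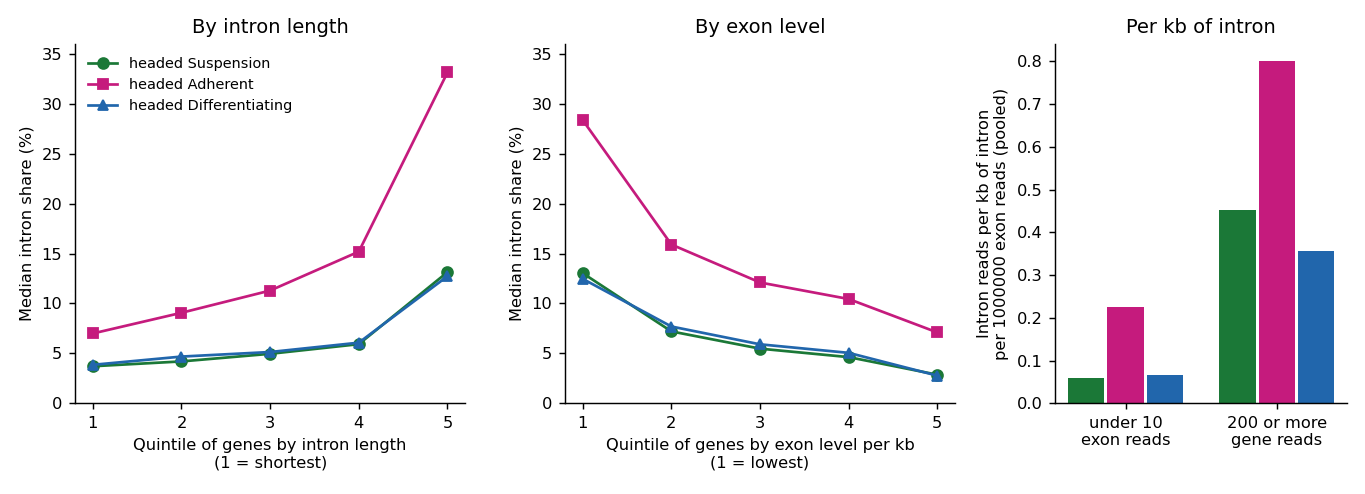
Median intron share in percent by quintile of genes, ordered by intron length (left) and by exon level per kb of exon (middle), and pooled intron CPM per kb of intron as bars (right) in genes with under 10 exon reads and in genes with 200 or more gene reads, in the colours of the 3 libraries. The library headed Adherent is highest everywhere, at 33.1% in the quintile with the longest introns against 13.1% and 12.7% in the others.

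Between the libraries headed Adherent and Suspension the intron share was at least 2-fold higher in Adherent in 4103 of 7737 genes with enough intron reads for a ratio (53.0%) and at least 2-fold lower in 122 (1.58%). The median log2 ratio was 1.07. Relative to this median, 1314 genes (17.0%) lay 2-fold or more above and 1113 (14.4%) 2-fold or more below. Taking off the median brings these counts near balance by construction, so they do not show that genes shared the shift. The quartiles of the log2 ratio were 0.41 and 1.75, and 6781 genes (87.6%) had a ratio above 0. The intervals of the shares lay apart in favour of Adherent in 5300 genes and in favour of Suspension in 312, and they overlapped in 2181.

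SLC1A4, a transporter of neutral amino acids (chromosome 2, 7092882 to 7120223, in the coordinates of the table, which names no genome build), had a share of 0.984%, 55.1% and 1.06%. This is 26, 217 and 29 intron reads beside an exon level of 109.7, 10.1 and 119 CPM, so in the library headed Adherent its exons were lower and its introns higher. The log2 ratio of intron reads per exon read, Adherent over Suspension, was 6.95 (95% interval 6.32 to 7.57), where the interval is approximate and again for counting error alone. MSN, moesin, which ties the membrane to the actin cortex, had shares of 0.386%, 15.0% and 0.391%, from 17, 80 and 10 intron reads. TMEM45A, a transmembrane protein, had 1.09%, 34.8% and 1.57%, and DCX, the doublecortin of microtubules in migrating neurons, 1.66%, 41.4% and 2.78%. For both of these the exon level was lower in Adherent, by a log2 ratio of -2.78 and -5.01. ECM1, a secreted matrix protein, had 0.256%, 7.57% and 0.336% at exon levels of 964, 55.3 and 2134 CPM. CDV3 had 0.332%, 12.0% and 1.25%. Its span overlaps TOPBP1, which had 5291, 3649 and 5224 reads, and whether the intron reads belong to that gene is not given by the counts. These 6 genes were picked from the largest share ratios of Adherent over Suspension. The gap between these libraries, also in the interval of SLC1A4, thus followed from that choice. In each of the 6 genes the libraries headed Suspension and Differentiating had a share under 3%.

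Genes with a lower share in Adherent were fewer. Of the 122 such genes, 91 (74.6%) had a higher exon level in Adherent than in Suspension, against 40.5% of all 7737 genes, where the share and the exon level rest on the same exon reads. MYH11, the myosin heavy chain of smooth muscle, had shares of 92.4%, 6.06% and 90.1% at exon levels of 1.01, 197 and 1.18 CPM. Its intron reads, 291, 221 and 247, gave a log2 ratio of the intron level of 0.05, against a median of 1.13 over all genes with a ratio. Scaled to exon reads, its introns thus had a like level in both libraries, and the share moved with the exons. GSN, gelsolin, which severs actin filaments, had 1.03%, 0.179% and 0.772% at 464, 3392 and 653 CPM and 115, 106 and 116 intron reads. EEF1A2, the elongation factor variant of muscle and neurons, had 1.03%, 0.163% and 1.04%, with a log2 ratio of the exon level of 1.89 and of the intron level of -0.78. CCNI, cyclin I, and TCEA3, a transcription elongation factor, also had lower introns in Adherent. Their shares were 10.2%, 1.41% and 4.53% for CCNI and 13.0%, 2.03% and 9.73% for TCEA3, with log2 ratios of the intron level of -2.15 and -1.36. MEX3D, an RNA-binding protein, had 8.59%, 1.37% and 4.27% at exon levels of 107, 86.7 and 109 CPM, the only one of these 6 genes whose exon level was not higher in Adherent.

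Between the libraries headed Adherent and Differentiating the share was at least 2-fold higher in Adherent in 3921 of 7733 genes (50.7%) and lower in 119 (1.54%), with a median log2 ratio of 1.02. Relative to this median the counts were 1386 (17.9%) and 1075 (13.9%). This comparison uses the same Adherent library as the one before, so it is no independent sight of it. SLC1A4, MSN, TMEM45A and ECM1 were again among the widest ratios. KIF26A, a member of the kinesin family, had shares of 2.85%, 45.7% and 1.81% at exon levels of 198, 14.8 and 608 CPM. Its log2 ratio of the intron level was 0.15, against a median of 1.28 over all genes with a ratio. SDC2, the heparan sulfate carrier syndecan 2, had 1.33%, 13.0% and 0.552% and a log2 ratio of the intron level of 3.96. XIRP1, the Xin protein of muscle that binds actin, had 0.661%, 7.74% and 0.335% at 1229, 78.5 and 195 CPM. Of these 3 genes KIF26A had a higher share with lower exons and a like intron level, and SDC2 and XIRP1 with higher introns and lower exons. The log2 ratios of the exon level were -0.79 for SDC2 and -1.31 for XIRP1. XIRP1 had 195, 115 and 15 intron reads, so its higher introns rest on few reads in Differentiating. Over Suspension the log2 ratio of its intron level in Adherent was -0.31.

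In the other direction, MYH11, GSN and TCEA3 were named again. CADM3, a cell adhesion molecule, had 23.0%, 4.43% and 23.8% and ESCO2, which acetylates cohesin, had 9.54%, 2.7% and 13.0%. Their exon levels were higher in Adherent, with log2 ratios over Differentiating of 2.79 and 2.08, while their intron levels had ratios of 0.04 and -0.34. SYNGR1, a protein of synaptic vesicles, had 6.63%, 1.6% and 6.47%, with fewer intron reads in Adherent (184, 24 and 155) and about the same exon level.

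The libraries headed Differentiating and Suspension were much closer. The share was at least 2-fold higher in Differentiating in 301 of 7689 genes (3.91%) and 2-fold or more below Suspension in 338 (4.40%), and the median log2 ratio was 0.05. Relative to the median the counts were 264 (3.43%) and 368 (4.79%). The intervals overlapped in 6324 of 7793 genes (81.1%), lay higher in Differentiating in 825 and higher in Suspension in 644. CREB1, the transcription factor that cyclic AMP signalling activates, had the widest ratio of all named genes in favour of Differentiating, with shares of 5.41%, 16.9% and 37.7% and 76, 180 and 641 intron reads at exon levels of 55.7, 50.8 and 46.4 CPM. Its span overlaps METTL21A, which had 418, 122 and 781 reads, and whether the intron reads belong to that gene is not given by the counts. NEK9, a kinase of mitosis, had 0.733%, 7.92% and 3.24%, and NCEH1, which hydrolyses cholesterol esters, had 2.9%, 34.6% and 11.3%. SCAMP5, a membrane protein of secretory vesicles, had 1.92%, 11.2% and 6.91%, and LACTB2, a mitochondrial endoribonuclease, had 3.02%, 9.68% and 10.2%. CDV3, with 18, 298 and 55 intron reads, was named in this comparison too. Apart from CREB1, all of these had as high a share in Adherent as in Differentiating or a higher one, within the intervals for LACTB2.

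Among the genes with a lower share in Differentiating than in Suspension, COMP, the cartilage oligomeric matrix protein, had shares of 4.32%, 6.38% and 0.684% at exon levels of 33.5, 41.2 and 897 CPM, and MMP23B, a metalloprotease, 15.2%, 23.5% and 2.47% at 18.2, 29.5 and 178 CPM. TKT, the transketolase of the pentose phosphate pathway, had 23.8%, 15.6% and 5.55% at 22.6, 61.4 and 82.8 CPM. In these 3 genes the exon level was higher in Differentiating. With unique reads the shares of MMP23B were 28.4%, 33.9% and 3.69%, and its span overlaps LOC100539530, which had 3298, 3087 and 2970 reads. In AVEN, an inhibitor of apoptosis, GNA12, the alpha subunit of a G protein, GUCD1 and SVEP1, a large extracellular adhesion protein, the exon level was alike and the intron reads were fewer. AVEN had shares of 25.4%, 13.3% and 6.27% from 125, 94 and 21 intron reads. GNA12 had 2.2%, 5.29% and 0.486% from 93, 84 and 18, and GUCD1 17.2%, 14.9% and 3.69% from 95, 76 and 15. SVEP1 had 28.9%, 9.66% and 5.48%, but of its intron reads in Suspension only 50% were unique to it.

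**Figure D3:**
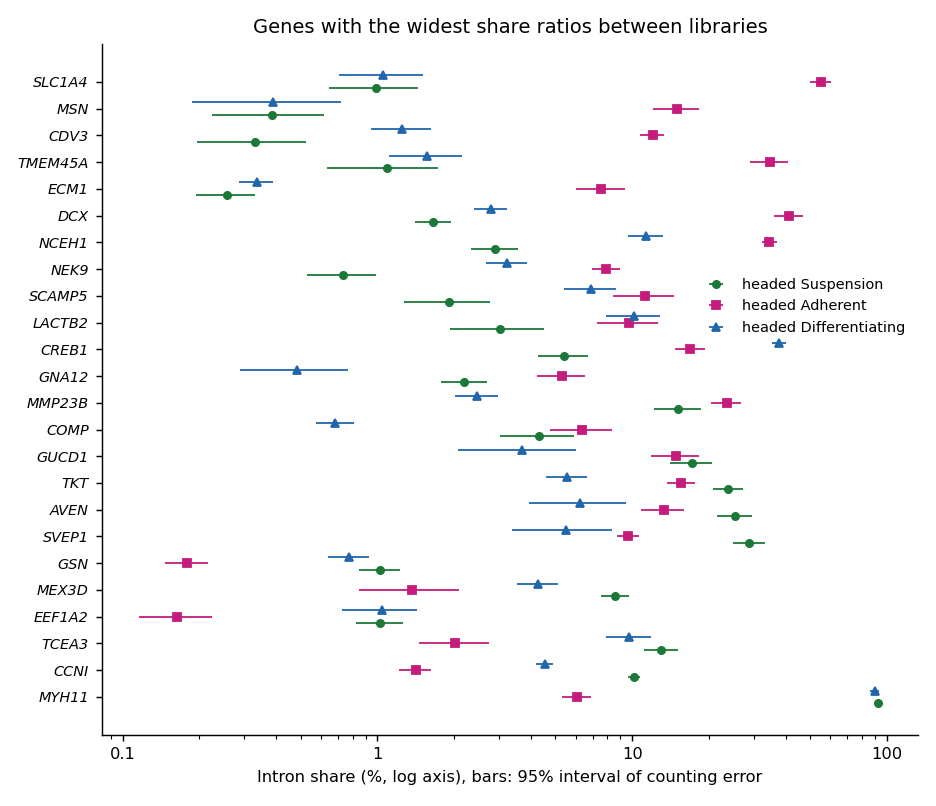
Intron share in percent (log axis) of the genes named for the widest ratios between the libraries headed Adherent and Suspension or Differentiating and Suspension, with bars for the exact 95% interval of counting error in each library. From SLC1A4 at the top (0.984% and 55.1% in Suspension and Adherent) to MYH11 at the bottom (92.4% and 6.06%) the genes are ordered by the ratio of Adherent over Suspension.

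The share does not say whether introns or exons moved, so intron and exon reads were also compared as levels, both in CPM. In Adherent over Suspension, 914 of 7791 genes (11.7%) had an exon level at least 2-fold higher and 1469 (18.9%) a level 2-fold or more below, while the intron level was at least 2-fold higher in 4205 of 7737 genes (54.3%) and lower in 360 (4.65%). In Adherent over Differentiating the exon level was higher in 1172 genes (15.0%) and lower in 1151 (14.8%), and the intron level higher in 4537 (58.7%) and lower in 341 (4.41%). In Differentiating over Suspension the exon level was higher in 380 of 7785 genes (4.88%) and lower in 846 (10.9%), and the intron level higher in 496 (6.45%) and lower in 1081 (14.1%). The balance of higher and lower exon levels depends on the scaling. Median-of-ratios factors, which centre the exon ratios, raised the log2 ratios by 0.19 in Adherent over Suspension and by 0.20 in Differentiating over Suspension, and the genes with a higher and a lower exon level then numbered 1160 and 1101 in the first pair and 549 and 618 in the second. The intron level was then higher in 4684 genes and lower in 293 in the first pair, and higher in 732 and lower in 834 in the second. With the scaling to exon reads, where the exon level differed by under 2-fold, the intron level was at least 2-fold higher in Adherent than in Suspension in 2995 of 5366 genes (55.8%) and higher in Differentiating than in Suspension in 288 of 6479 (4.45%).

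Exon and intron levels moved together across genes, more so without the Adherent library. Over genes, Pearson's r of the log2 ratios was 0.69 (Spearman's rho 0.62, n = 7681 genes) for Differentiating over Suspension and 0.53 (rho 0.47, n = 7735) for Adherent over Suspension. Genes share the libraries and their totals and are not replicates, so these values only describe the libraries. Of 827 genes whose exon level was at least 2-fold lower in Differentiating than in Suspension, 564 (68.2%) also had an intron level at least 2-fold lower and 2 an intron level at least 2-fold higher. Of 1460 such genes in Adherent over Suspension, 246 (16.8%) had the intron level lower as well and 414 had it at least 2-fold higher. Of 909 genes with the exon level at least 2-fold higher in Adherent, 796 had the intron level higher as well and 8 had it lower.

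Intron and exon level thus lay at least 2-fold apart in opposite directions in 422 of 7735 genes (5.46%) for Adherent over Suspension, in 8 of 7681 (0.104%) for Differentiating over Suspension and in 338 of 7731 (4.37%) for Adherent over Differentiating. The 414 genes with lower exons and higher introns in Adherent than in Suspension had a median intron length of 18738 bases and a median of 0.0901, 0.28 and 0.0839 intron CPM per kb of intron. Over all genes with a ratio the medians were 10967 bases and 0.273, 0.548 and 0.249. The level per kb fell with intron length, and in the quintile with 15787 to 32770 bases of intron it was 0.165, 0.388 and 0.147. The 414 genes thus lay below both in each library, by less against genes of like intron length. SLC1A4 was one of them. EGLN3, an oxygen-sensing prolyl hydroxylase, had 107, 371 and 70 intron reads at exon levels of 11.0, 0.401 and 16.7 CPM, a share of 28.9%, 98.1% and 15.5%. RIMS1, a scaffold of the presynaptic zone, had 99, 447 and 85 at 12.7, 0.803 and 10.1 CPM and a share of 24.7%, 97.0% and 27.0%. KCNK1, a potassium channel, had 47, 212 and 33 at 15.9, 2.35 and 31.6 CPM, named for Adherent over Differentiating. The introns of EGLN3, RIMS1 and KCNK1 span 105982, 181272 and 98913 bases. Their exon levels in Adherent rest on few reads, 7, 14 and 41 in the same order.

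Genes with higher exons and lower introns were few in every comparison. TCEA3 was named for Adherent over Suspension. COPRS, named for Adherent over Differentiating, had shares of 97.8%, 94.6% and 99.5% at exon levels of 0.839, 1.15 and 0.219 CPM, and EFNA5, a ligand of Eph receptors named for Differentiating over Suspension, had 99.9%, 98.9% and 90.2% at 0.0419, 0.344 and 1.31 CPM, so the exon ratios of both rest on few reads. Of the intron reads of COPRS only 35.3%, 48.0% and 28.6% were unique to it. TMEM200B, also named for Differentiating over Suspension, had 90.5%, 93.6% and 51.8% from 496, 2239 and 175 intron reads at 2.18, 8.83 and 7.14 exon CPM.

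**Figure D4:**
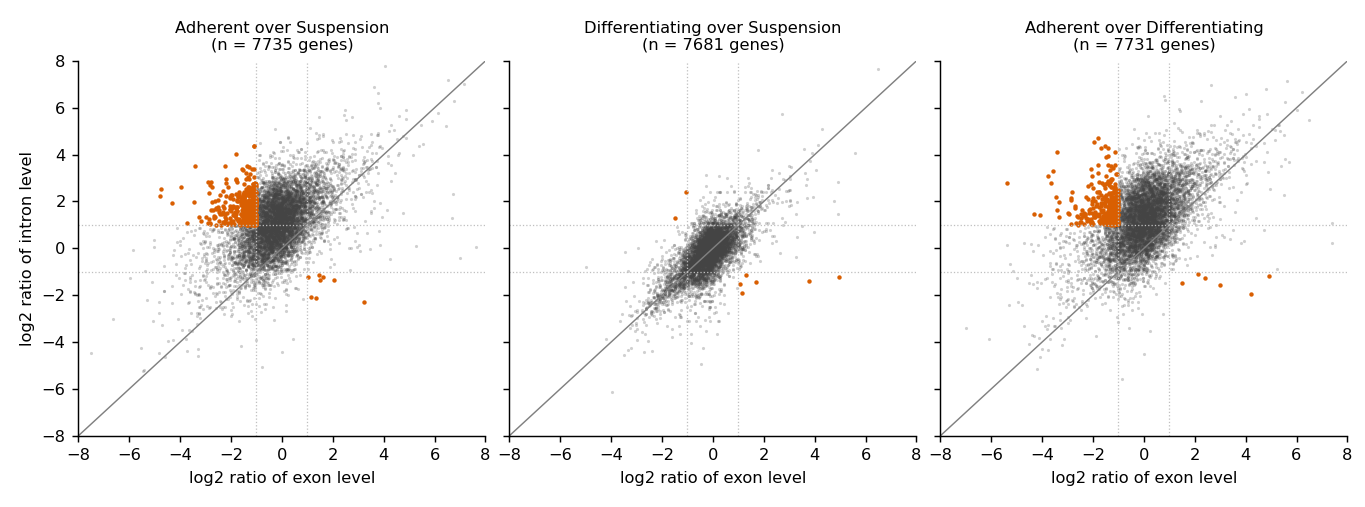
Log2 ratio of the intron level (vertical axis) against that of the exon level (horizontal axis), both in CPM, for each gene with more than 1 exon in the 3 comparisons, with genes at least 2-fold apart in opposite directions in orange, dotted lines at 2-fold and the line of equal ratios in grey. In the middle panel (7681 genes) the cloud lies along the grey line with 8 orange genes, and in the panels with the Adherent library it lies above that line with 422 and 338.

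Gene groups differed in their shares and in how far Adherent stood above the other libraries. Counts in a group are read against the 53.0% of all genes at least 2-fold higher in Adherent than in Suspension, and each median log2 ratio against 1.07. Among the genes of muscle, the sarcomere genes (33 genes, among them actins, myosins and troponins) had median shares of 4.65%, 11.8% and 5.09%, and 19 of 32 were at least 2-fold higher in Adherent, with a median of 1.40. In Adherent over Suspension the median log2 ratio of their exon level was -1.33 and that of their intron level -0.09. Over all genes these medians were -0.20 and 1.13, so both levels of the sarcomere genes lay below those of all genes. CSRP3, the muscle LIM protein of the Z-disc, had shares of 11.4%, 65.4% and 11.5% at exon levels of 216, 8.66 and 71.1 CPM. TMOD4, tropomodulin 4, which caps thin filaments, had 81.0%, 40.6% and 81.2% at 4.28, 26.5 and 3.86 CPM. MYL1, a light chain of fast muscle myosin, was the 1 member at least 2-fold lower in Adherent, with 3.46%, 1.63% and 2.01% from 1566, 211 and 227 intron reads, and was named for this after its values were seen. In Differentiating over Suspension both levels of the sarcomere genes were lower, with medians of -1.80 for exons and -2.08 for introns, and the share had a median of -0.15, so that exons and introns differed alike in that pair.

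Of the genes of excitation-contraction coupling and the synapse, 3 of 11 were higher in Adherent than in Suspension, with a median of 0.66. The acetylcholine receptor subunit CHRNA1 had shares of 5.47%, 10.7% and 6.72% at exon levels of 2674, 159 and 298 CPM. MUSK, the kinase that gathers these receptors, had 15.4%, 35.4% and 11.5%, and RYR3, a calcium channel of the sarcoplasmic reticulum, had 13.8%, 31.3% and 31.0%, but most of its intron reads were not unique. Of the myogenic factors and satellite cell genes 3 of 9 were higher, with a median of 0.91. MEF2C, a transcription factor of muscle differentiation, had 8.23%, 18.1% and 5.67% and SDC4, a proteoglycan of the satellite cell surface, 7.92%, 14.9% and 6.09%. Of the muscle RNA-binding proteins 8 of 16 were higher, with a median of 0.97. QKI, which guides splicing in muscle, had shares of 25.3%, 71.4% and 26.7% at exon levels of 69.5, 54.6 and 34.4 CPM, and RBM24, a splicing regulator of muscle, 6.01%, 9.52% and 8.12% at 1036, 1011 and 235 CPM. KHDRBS3, a relative of QKI, had 10.6%, 28.4% and 9.28%.

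Of the 20 lists, that of the heat shock, chaperone and ubiquitin genes, which help proteins fold or mark them for breakdown, had the highest median ratio of Adherent over Suspension. Their median shares were 1.39%, 8.21% and 1.83%, 19 of 23 were at least 2-fold higher in Adherent than in Suspension, and the median log2 ratio was 2.08. HSP90AA1, a cytosolic chaperone, had 105, 4570 and 154 intron reads, a share of 0.471%, 4.79% and 0.874%, at exon levels of 931, 5209.8 and 765 CPM. TCP1, a subunit of the ring chaperonin, had 3.26%, 20.9% and 3.63% at 319, 216 and 271 CPM, and DNAJB6, a co-chaperone, had 21.7%, 38.8% and 23.9% at 285, 139.9 and 137 CPM. HSP90AA1 thus had both more exon and more intron reads in Adherent, and TCP1 had its lowest exon level there. The exon level of DNAJB6 in Adherent was lower than in Suspension and about that in Differentiating. The span of HSP90AA1 overlaps WDR20 (1043, 1216 and 778 reads) and that of TCP1 overlaps ACAT2 (2291, 1070 and 2388 reads). Whether their intron reads belong to those genes is not given by the counts. The reference genes often used for normalisation came next, with 12 of 15 higher, medians of 0.93%, 5.47% and 0.892% and a median log2 ratio of 1.75. GUSB, a lysosomal glucuronidase, had 12.8%, 25.2% and 17.4%.

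Genes of growth and metabolism lay on both sides of the median. Of the genes of DNA replication and mitosis, 20 of 27 were higher in Adherent than in Suspension, with a median of 1.65. ANLN, anillin of the cleavage furrow, had 2.61%, 24.0% and 2.82%, ECT2, an exchange factor needed for cell division, 6%, 20.4% and 6.47%, and PRC1, which bundles the microtubules of the spindle midzone, 4.64%, 7.0% and 6.82%. The span of ANLN overlaps AOAH (26, 85 and 43 reads) and that of PRC1 overlaps RCCD1 (438, 979 and 384 reads). Whether their intron reads belong to those genes is not given by the counts. Of the ATF4 response and tRNA synthetase genes, 9 of 9 were higher, with a median of 1.62. SLC7A11, the cystine transporter, had shares of 25.1%, 89.9% and 19.2% at exon levels of 11.1, 2.06 and 14.8 CPM, VLDLR, a receptor of lipoproteins, had 6.95%, 20.4% and 5.56%, and ATF4 itself had 1.94%, 4.49% and 2.05%. Of the oxidative phosphorylation genes of the nucleus 11 of 23 were higher, with a median of 0.98, among them NDUFA4 with 1.95%, 18.4% and 4.69% and NDUFS6 with 6.05%, 22.2% and 6.58%, while SDHA had 0.846%, 2.84% and 1.32%. Of the cholesterol synthesis genes 5 of 10 were higher, with a median of 0.98. SREBF2, the transcription factor that switches these genes on, had 2.99%, 23.4% and 3.26% at exon levels of 398, 47.2 and 328 CPM, and HSD17B7 had 9.02%, 27.0% and 11.4%.

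Genes of RNA processing were described in several lists. The SR proteins and CLK kinases, which choose splice sites, had median shares of 10.8%, 16.9% and 13.5% against 5.41%, 12.2% and 5.68% over all genes, but 4 of 23 were at least 2-fold higher in Adherent, with a median log2 ratio of 0.33. RBM5, a splicing regulator, had 18.6%, 15.9% and 23.6% at exon levels of 334, 723 and 335 CPM, a share lowest in Adherent. DYRK1A, a kinase of splicing factors, had 4.15%, 19.2% and 7.18%, and SRPK2, a kinase of SR proteins, 6.3%, 20.0% and 6.13%. The hnRNPs and RNA helicases had a median ratio of 0.69, with 8 of 22 higher. DDX5, a helicase of this group, had 6061, 3847 and 8511 intron reads and shares of 20.6%, 10.7% and 24.4% at exon levels of 978, 1835 and 1157 CPM, so its share was lowest in Adherent where its exon level was highest. SFPQ, a splicing factor of nuclear paraspeckles, had over 50% intron reads in every library, 52.3%, 70.5% and 54.8%, and TAF15 had 5.48%, 19.5% and 8.29%.

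The core of the spliceosome, which carries out the splicing itself, had lower median shares than these regulators. They were 4.33%, 9.66% and 3.61%, and 25 of 32 were higher in Adherent than in Suspension, with a median of 1.13, near that of all genes. SF3B1, which holds the branch point, had 1.83%, 5.98% and 1.62%, SNRPC, a protein of the U1 particle, 19.5%, 43.2% and 23.1%, and SNRPF, a protein of the Sm ring, 10.9%, 57.4% and 9.54%. The genes of nonsense-mediated decay, the exosome and export had 12 of 24 higher and a median of 1.01. EIF4A3 of the exon junction complex had 3.35%, 16.1% and 3.65%, the exonuclease XRN1 8.7%, 34.9% and 9.6% and SMG6, the endonuclease of this decay, 18.9%, 42.3% and 30.2%. The genes known in mammals to host small nucleolar RNAs in their introns had 11 of 25 higher and a median of 0.84, with 5.14%, 18.7% and 4.68% in NOP58, 3.46%, 18.1% and 5.12% in NAP1L4 and 0.346%, 0.621% and 0.242% in EEF2.

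The cytosolic ribosomal proteins had the median ratio of Differentiating over Suspension farthest from 0 of all lists. Of these genes 0 of 59 had a share at least 2-fold higher in Differentiating and 10 had one 2-fold or more below that in Suspension, with a median log2 ratio of -0.75 against 0.05 over all genes and 4.40% of all genes lower. Their median shares were 2.11%, 2.7% and 1.18%. The exon level was higher in Differentiating, with a median of 0.91, and the intron level had a median of 0.15. In Adherent over Suspension both exon and intron level were higher, with medians of 1.52 and 1.61, and 10 of 59 had a share at least 2-fold higher while 2 lay 2-fold or more below, with a median of 0.27. The genes lower there, RPL27A and RPL34, named after their values were seen, had shares of 7.56%, 2.45% and 3.19% and of 3.06%, 1.27% and 1.6%. RPL4 had shares of 0.734%, 0.887% and 0.303% at 1304, 3606 and 2104 CPM, RPL29 18.2%, 17.3% and 9.84% and RPL38 12.5%, 25.5% and 9.24%. Exon reads of ribosomal protein genes may be shared with near-identical copies. The intron reads of RPL4, RPL27A, RPL29, RPL34 and RPL38 were 100% unique in every library.

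Immediate early genes, which growth factors and stress switch on within minutes, had the highest median ratio of exon level of all lists in Adherent over Suspension and a small one in share. This exon level had a median log2 ratio of 2.87 and their intron level of 3.77, but the share had a median of 0.32, with 3 of 11 at least 2-fold higher. EGR1, a transcription factor of this group, had exon levels of 158, 4684 and 142 CPM and 40, 1343 and 52 intron reads, and its share was 1.05%, 1.62% and 1.58%. KLF10 had 2.73%, 7.84% and 3.06% and MYC 5.19%, 7.97% and 4.22%. In EGR1 introns and exons were thus higher together, unlike in the genes of the opposite pattern.

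The collagens and other matrix genes had low shares, with medians of 1.53%, 2.58% and 1.74%, and 13 of 27 were at least 2-fold higher in Adherent than in Suspension, with a median of 0.88. NID1, nidogen of the basal lamina, was the 1 gene at least 2-fold lower, with 4.9%, 2.16% and 4.26% at exon levels of 16.3, 1402 and 15.8 CPM, and was named after its values were seen. It had 20, 540 and 16 intron reads. The interval of its log2 ratio of intron reads per exon read, Adherent over Suspension, was -1.88 to -0.56 and so not wholly beyond 2-fold. VCAN, the proteoglycan versican, had 9.7%, 42.2% and 8.1% at exon levels of 365, 22.2 and 515 CPM, the same pattern as COL12A1. Of the fibroblast and mesenchymal genes 2 of 7 were higher and 1, MYH11, was lower, with a median of 0.32. DDR2, a receptor of collagen, had 2.01%, 6.15% and 2.5%, and ACTA2, smooth muscle actin, 0.842%, 1.0% and 0.728%. Of the Schwann and neural genes only NRXN3, a neurexin of synapses, was among the 7793 genes, with 68.6%, 89.4% and 71.0% and 463, 2474 and 289 intron reads from an intron length of 889311 bases.

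**Figure D5:**
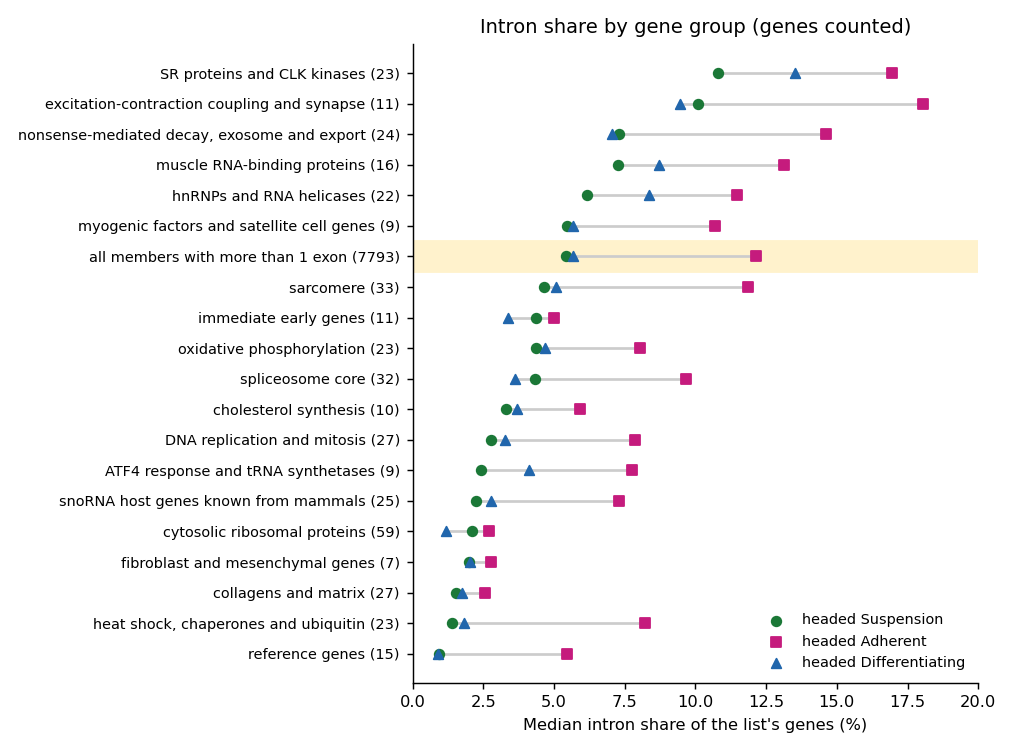
Median intron share in percent (horizontal axis) of the genes of each group in the 3 libraries, with the number of genes with more than 1 exon in brackets and all 7793 genes in the shaded line, for groups of at least 5 genes. The library headed Adherent has the highest median in every group, from 2.58% in the collagens and matrix genes to 18.0% in excitation-contraction coupling and synapse. The line is longest relative to its start for the reference genes (0.892% to 5.47%) and the heat shock, chaperone and ubiquitin genes (1.39% to 8.21%).

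A pair of further genes was chosen after its values were seen, because most of their intron reads lay in 1 library. CREB5, a transcription factor related to CREB1, had 151, 10868 and 161 intron reads and shares of 62.4%, 92.3% and 61.7%, at exon levels of 3.82, 52.2 and 4.38 CPM. IFRD1, a transcriptional co-regulator known in mouse for its part in muscle regeneration, had 413, 7918 and 363 intron reads and shares of 9.16%, 35.0% and 8.81%, at exon levels of 172, 844 and 165 CPM. Both genes resemble SAT1 in that exon level and share were highest in the library headed Adherent.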

How the data were processed

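RNA of cultured turkey satellite cells was sequenced as 3 libraries, 1 per group, each from the pooled RNA of 3 experiments, and libraries were grouped by the labels and the headings of the counts. The deposited table holds whole-number counts per gene of all, exon, exon-exon and intron reads, in total and unique to 1 gene, with no scaling by the authors. The study's methods name bcl2fastq 2.20, alignment with STAR 2.5.2b to a turkey genome with an Ensembl annotation, and counting with featureCounts. That the table came from that route is not stated in the sources used here, and the table names no build. Gene reads equalled exon plus intron reads in every row. The deposited RPKM values and the authors' fold changes (ratios of unscaled counts) were not used. The fold-change columns served only to check headings. Within 0.02 on the log2 scale, all of 12207 genes of the column headed Suspension and Differentiating matched the counts headed Adherent and Differentiating, and all of 12154 of that headed Adherent and Differentiating matched those headed Suspension and Differentiating.

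Shares and ratios come from Python 3.11.15 with pandas 2.3.3, numpy 2.4.6 and scipy 1.17.1. The share is intron reads in percent of gene reads, in genes with at least 200 gene reads in every library. Exon and intron levels are reads scaled to 1000000 exon reads (CPM), from library totals of 23844835, 17444865 and 22816125. A ratio of at least 2-fold was counted, a count of 0 was set to a floor of 3 reads, and pairs of counts that were both at or below that floor got no ratio. One library per group allows no test.

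Genes were named by rule. The rule took the 8 with most intron reads per library, the 10 with the highest lowest share and the 5 of highest level. Per comparison it took the 8 largest and 8 smallest share ratios and the 4 widest gaps per direction between intron and exon ratio in genes of opposite direction, with at least 50 intron reads in the higher library and 10 in the lower. Per list it took the 2 widest ranges of share and the highest level. LOC numbers were counted but not named. As features without exons tie at 100%, the first 2 parts were also applied to genes with more than 1 exon, a choice made after seeing the data, as were CREB5, IFRD1, MYL1, NID1, RPL27A and RPL34. A few genes the rule names are not reported here. The genes and the 20 lists were chosen with earlier results of these data known. Alternatives were other read minimums, fold limits, a pseudocount, unique reads, other scalings, overlap and an exchange of headings.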

Additional observations from a re-analysis of the deposited data

How the results depend on the processing

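With 1 library per group, spread between cultures was not measured, leaving out a replicate was not possible, and intervals cover counting error only. No paired analysis was possible because each group has 1 library. Differences between the library headed Adherent and the others are differences between single pools, and culture, cell makeup and library preparation cannot be told apart. At 200 gene reads the floor of 3 reads is a share of 1.5%, so ratios between low shares were not detectable at this depth.

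The values here are on all 8241 genes, for which the median shares were 5.60%, 12.5% and 5.88% (in the order Suspension, Adherent, Differentiating) and the counts of genes with a share at least 2-fold higher and lower were 4104 and 122 for Adherent over Suspension, 301 and 338 for Differentiating over Suspension, and 3921 and 119 for Adherent over Differentiating. In every alternative tried except the exchange of headings the library headed Adherent had the highest median or summed share. The medians were 6.36%, 14.2% and 6.55% with a minimum of 100 gene reads, 3.67%, 9.27% and 3.88% with 1000, 5.41%, 12.2% and 5.68% in genes with more than 1 exon, 5.31%, 11.9% and 5.59% in genes with a symbol that is no LOC number, and 5.05%, 11.5% and 5.31% in genes with more than 1 exon and no overlapping feature, a choice added after seeing the data. Summed over genes the share was 14.7%, 22.8% and 11.4%, and without the 10 genes with most intron reads 9.09%, 14.3% and 7.43%. With unique reads the medians stayed within their intervals, and so did 311 of 339 shares of named genes.

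The counts of genes depend on the limit. At 1.5-fold, 269 genes were lower for Adherent over Suspension, 996 higher and 879 lower for Differentiating over Suspension, and 296 lower for Adherent over Differentiating. At 4-fold the higher and lower counts were 1411 and 32, 19 and 49, and 1414 and 21 in the same order of comparisons. Relative to the median ratio they were 1381 and 1331 for Adherent over Suspension and 1488 and 932 for Adherent over Differentiating. With intron reads per exon read, 191 and 190 genes were lower in Adherent than in Suspension and in Differentiating. With at least 50 intron reads in the higher library these were 67 and 64, and 111 genes were higher and 126 lower for Differentiating over Suspension. With the interval wholly beyond 2-fold, 69 and 64 genes were lower in Adherent, and 51 higher and 71 lower for Differentiating over Suspension. With 100 gene reads 184 were lower for Adherent over Suspension. With 1000 gene reads the counts were 1816 and 31, 90 and 87, and 1724 and 38, from fewer genes.

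Exon levels at least 1.5-fold higher and lower were found in 1554 and 2637 genes for Adherent over Suspension, 831 and 1755 for Differentiating over Suspension, and 2065 and 2016 for Adherent over Differentiating, and at least 4-fold in 310 and 386, 81 and 192, and 378 and 323, against 943 and 1498, 388 and 863, and 1208 and 1169 at 2-fold. With median-of-ratios factors the counts at 2-fold were 1194 and 1119, 558 and 632, and 1206 and 1173, so the excess of lower genes in Adherent over Suspension turned round and that in Differentiating over Suspension shrank. With intron reads scaled by the library's intron reads, genes of opposite direction numbered 184 in place of 422 for Adherent over Suspension and 111 in place of 338 for Adherent over Differentiating, so these counts rest on the higher intron total of that library.

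If the headings Suspension and Adherent were exchanged, the medians would be 12.5% and 5.60%, and the median log2 ratios -1.02, -0.96 and -0.026 in place of 1.02, 0.026 and 0.96. The higher and lower counts of shares would be 122 and 4104, 119 and 3921, and 338 and 301. Those of exon levels would be 1498 and 943, 1169 and 1208, and 863 and 388, and genes of opposite direction would number 338 for Differentiating over Suspension and 8 for Adherent over Differentiating.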

Other observations

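The 321 genes with no annotated exon were looked up by symbol in the RefSeq annotation of turkey, which places most matched genes at other coordinates than the deposited table and served for the kind of gene alone. There 214 of them are long non-coding RNAs, 16 are protein-coding and 82 did not match a symbol.

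Genes known by a LOC number had median shares of 5.47%, 12.2% and 5.48% in Suspension, Adherent and Differentiating, over 1180 genes with more than 1 exon. The 6613 genes with a symbol had medians of 5.4%, 12.1% and 5.71%. The genes richest in intron reads held 50% of those reads with 146 genes in Suspension, 343 in Adherent and 226 in Differentiating, out of the 7793 genes with more than 1 exon. These numbers turn on UFL1, whose reads mostly match other places too. Without that gene they were 331, 646 and 432.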
